A study of Homo sapiens with 3 samples.

Results

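ARIH1 and ARIH2 are paralogous ubiquitin ligases whose transcripts were examined for MATR3 contact sites in HAP1, a human cell line with a near-haploid genome that descends from the leukaemia line KBM-7. MATR3 is a nuclear RNA-binding protein of the nuclear matrix. The assay was PAR-CLIP, in which crosslinked RNA fragments are recovered with the protein and sequenced, and crosslinked uridines are read as T-to-C conversions. Wild-type (WT) cells gave 2 replicate libraries and MATR3 knockout (KO) cells gave 1, the negative control. Both lines were commercial, all libraries were recovered on anti-FLAG beads, and no tag on MATR3 and no treatment that differed between the lines is given in the labels. The unit of the data is the cluster, a stretch of overlapping reads called separately in each library, with its read count and its conversions. The genes were taken by name, as all clusters that the authors' annotation assigned to ARIH1 or ARIH2. ARIH1 was chosen by its cluster counts in these same libraries, high in both introns and the 3' UTR, so those counts are given as a description. In all, 159 of 115227 clusters belonged to these genes: 146 to ARIH1 and 13 to ARIH2.

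Both proteins are RING-between-RING (RBR) ligases. Such an enzyme binds a ubiquitin-loaded E2 through its first RING domain and passes the ubiquitin through a thioester on a catalytic cysteine before it reaches the substrate. ARIH1 and ARIH2 are held inactive by their own Ariadne domain and are switched on by binding cullin-RING ligases that carry the ubiquitin-like protein NEDD8. ARIH1 works with CUL1, CUL2, CUL3 and CUL4A complexes and ARIH2 with CUL5 complexes, and UBE2L3 is the E2 best known for serving RBR ligases.

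The most deeply read sites of both genes, and those called in both WT libraries, show what kind of RNA was recovered. Coordinates are those of the deposited clusters (hg38, plus strand). Clusters longer than 30 nt are shown as 30 of their bases. Capitals mark TCTT, a pyrimidine tetramer also searched in all clusters. The first 5 sequences are intronic ARIH1 stretches common to both WT libraries and are followed by the one 3' UTR stretch common to both.
ARIH1 intron at chr15:72564520-72564549: tttctagcttgcacttccaagcTCTTccag
ARIH1 intron at chr15:72564245-72564274: tttcatttctctaccttccacaaaacaatt
ARIH1 intron at chr15:72558719-72558748: ctcacttTCTTttacttccttatcaatatc
ARIH1 intron at chr15:72565791-72565820: ctccttcccattccccaTCTTTCTTttcag
ARIH1 intron at chr15:72564069-72564098: ttttttccaaagtggataggctgaaaattt
ARIH1 3' UTR at chr15:72585193-72585220: tataaatgctgcttccttaaaccacttg

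The next 3 sequences are the other 3' UTR clusters of ARIH1 with the most reads in either WT library, and the last 3 are ARIH2 clusters: the one common to both WT libraries, the one with the most reads, and the one that the authors placed in both coding and intronic sequence.
ARIH1 3' UTR at chr15:72596321-72596350: ttcatcattttaatttttatttcctttccg
ARIH1 3' UTR at chr15:72596880-72596908: ttttccacattttccattctactttttag
ARIH1 3' UTR at chr15:72596549-72596574: cttctccTCTTCTTtggagattctag
ARIH2 intron at chr3:48961805-48961834: attctattttacatccTCTTcTCTTaatat
ARIH2 intron at chr3:48949992-48950021: aaaTCTTtgcctaaactaaggcacaatttt
ARIH2 coding and intron at chr3:48967248-48967277: gttctcgtcaaggacggcgtgggcgtgggt
The stretches are pyrimidine-rich for the most part, and the last one differs from the rest in its many G.

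ARIH1 carried many clusters in both WT libraries and none in the KO library. WT replicate 1 held 112 of its clusters, with 5808 reads, and WT replicate 2 held 34, with 2116 reads (mean 73 ± 55.2 clusters, SD, n = 2). The libraries differed in cluster number, from 87230 clusters in WT replicate 1 to 27155 in the other WT library and 842 in the KO. Per 10000 clusters of its own library, ARIH1 had 12.8 and 12.5 clusters in the WT replicates, so its share of clusters was nearly the same in both. Its share of library reads was less alike, 0.218% and 0.136%. ARIH2 had 8 clusters with 216 reads and 5 clusters with 691 reads (mean 6.5 ± 2.12 clusters, SD, n = 2), or 0.917 and 1.84 per 10000. The replicates thus gave ARIH2 its higher read total in the shallower library, where 1 cluster held 564 of the 691 reads.

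The KO library held no cluster of either gene, but its small number of clusters limits what that shows. At the share of clusters seen in the WT replicates, a library with the KO's number of clusters would hold 1.08 or 1.05 clusters of ARIH1 and 0.0772 or 0.155 of ARIH2. By number of clusters, an absence in the KO was therefore not detectable for either gene. The KO held 224142 reads in clusters, with a median of 243 per cluster against 20 and 39 in WT replicates 1 and 2. Cluster number is thus no measure of its reads, and an expectation from reads was not computed. With 2 WT libraries and 1 KO library an exact permutation test cannot give a p below 0.333, and no test between genotypes was made.

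Relative to gene length, ARIH1 also stood above its paralog. In the RefSeq annotation (GRCh38.p14) ARIH1 (gene ID 25820) spans chr15:72474330-72602987, 128658 nt, and ARIH2 (gene ID 10425) spans chr3:48918842-48986382, 67541 nt. All member clusters lay inside these intervals and on their strand. ARIH1 had 8.71 and 2.64 clusters per 10 kb of gene in WT replicates 1 and 2, against 1.18 and 0.740 for ARIH2 and medians of 1.02 and 0.428 over the genes with any cluster. Thus the density of ARIH1 was 7.35 and 3.57 times that of ARIH2, and ARIH2 lay close to the typical gene, at the 55.4th and 70.0th percentiles.

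**Figure D1:**
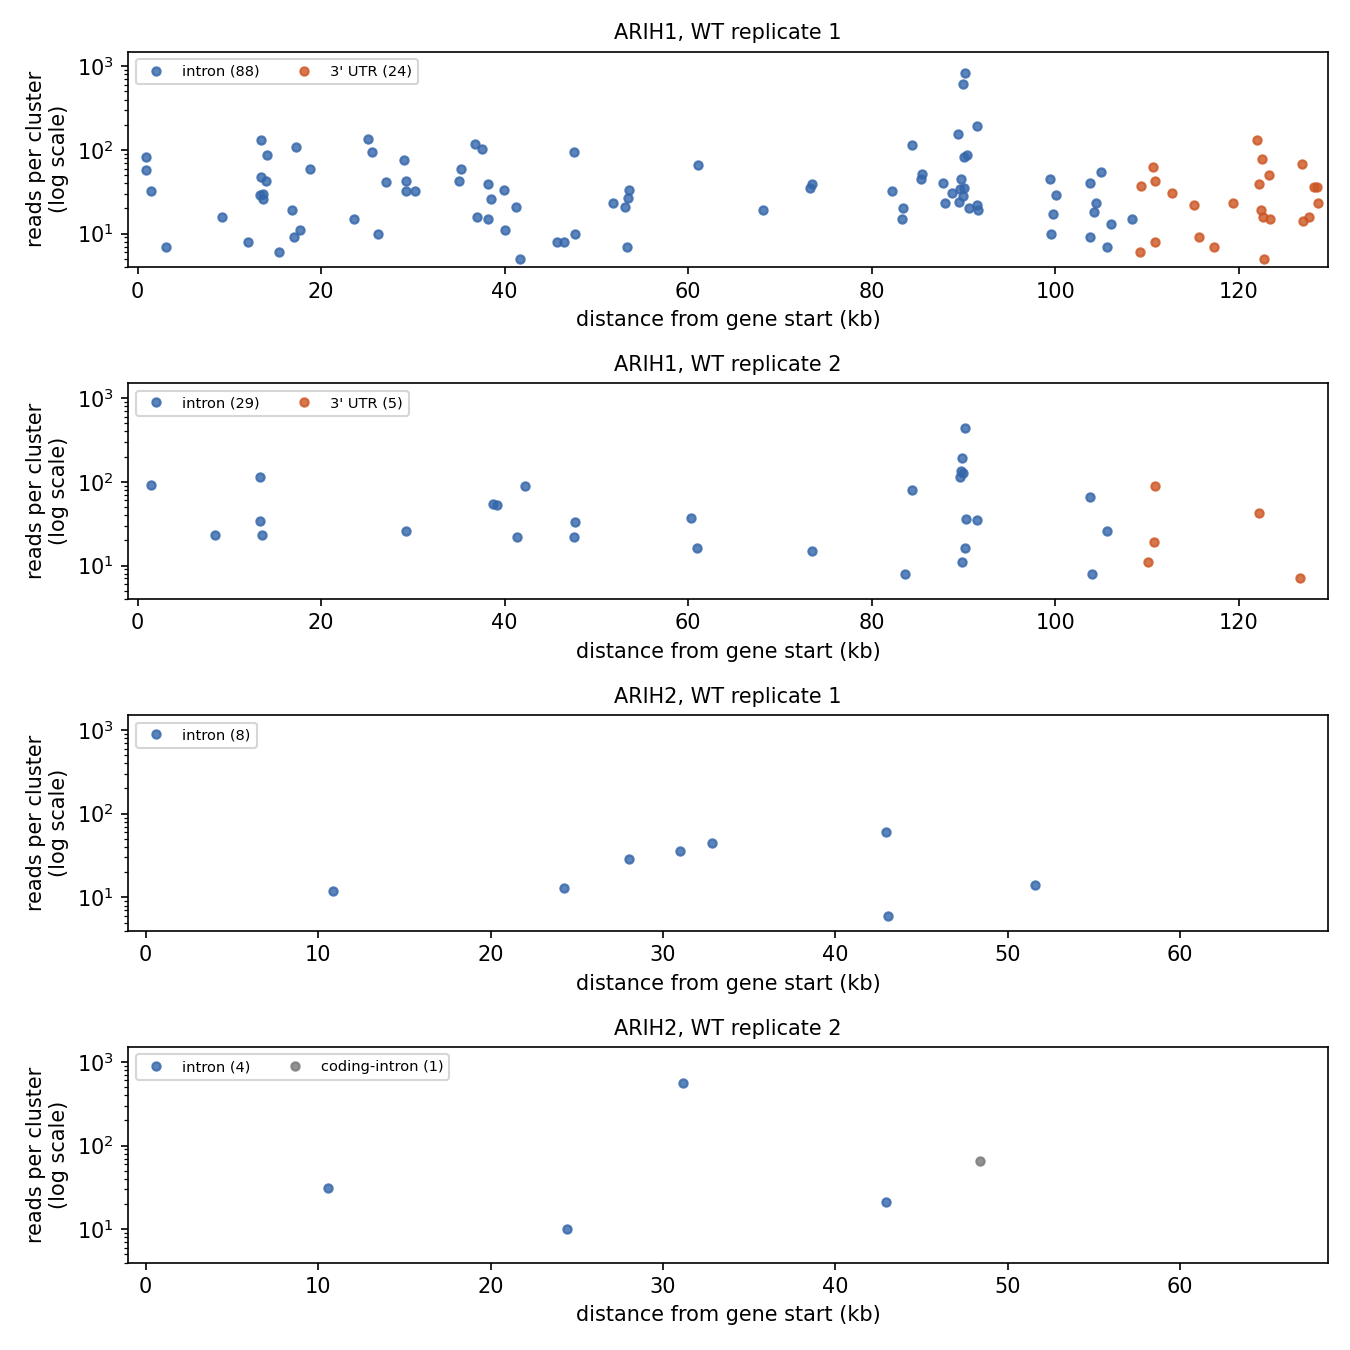
Reads per cluster (log axis) against distance from the RefSeq start of each gene (kb) in the WT libraries; each point is a cluster, coloured by the authors' class. ARIH1 clusters run along the whole gene with the 3' UTR ones at its far end, and ARIH2 has 8 and 5 clusters in WT replicates 1 and 2.

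The 117 intronic clusters of ARIH1 were spread over most of the gene but were thin in its middle. The bin from 80 to 90 kb past the gene start held the most clusters, 15 and 7 in WT replicates 1 and 2, while the bin from 60 to 70 kb held 2 and 2. When clusters of both libraries were joined across gaps of up to 500 nt, a rule set after the positions had been seen, they formed 55 groups, of which 25 were single clusters. The group with the most clusters, chr15:72563732-72564972, covered 1241 nt, or 0.965% of the gene, at 89.4 to 90.6 kb from its start. It held 19 clusters, 11 from WT replicate 1 and 8 from WT replicate 2. Its reads numbered 1959 and 1073, which were 33.7% and 50.7% of all ARIH1 reads in those libraries.

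Within that stretch, a few sites held most of the reads. The site ending at chr15:72564549 had 830 reads in WT replicate 1 and 440 in WT replicate 2, the highest of any ARIH1 cluster in both. The site ending at chr15:72564277, upstream of it, had 620 and 126 reads. A further site, chr15:72564069-72564110, was called with identical borders in both libraries but had more reads in the shallower one, 136 against 45. The order of the sites by reads therefore differed between replicates below the first.

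**Figure D2:**
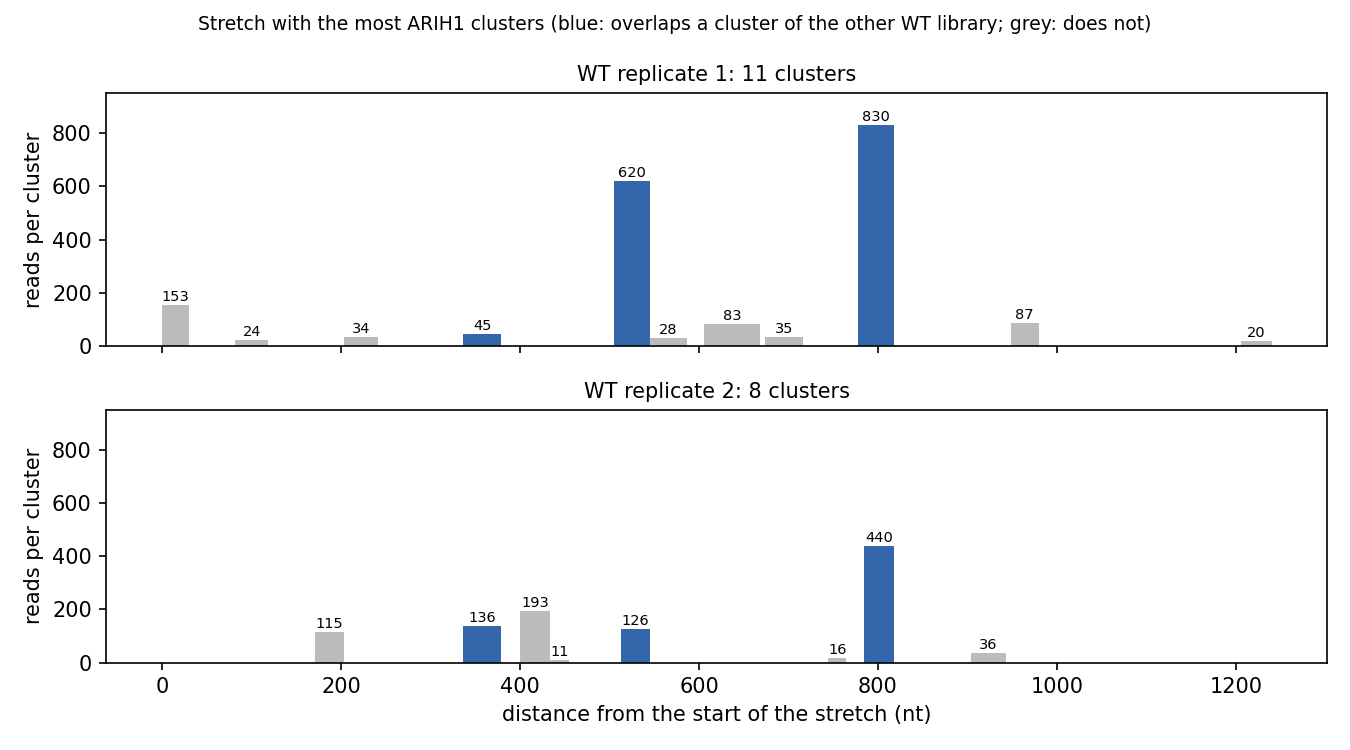
Reads per cluster against distance (nt) from the start of the stretch with the most ARIH1 clusters, one panel per WT library; bar width is the cluster's length, and blue bars overlap a cluster of the other WT library. The tallest bar stands at the same place in both panels, with 830 and 440 reads, while the grey bars stand in only 1 library each.

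In the 3' UTR, ARIH1 had 24 clusters in WT replicate 1 and 5 in WT replicate 2. These were 21.4% (95% Wilson interval 14.8 to 29.9) and 14.7% (6.45 to 30.1) of its clusters (mean 18.1% ± 4.75, SD, n = 2), where 3' UTR clusters were 2.94% and 4.16% of all clusters. Intervals here and below cover counting error only. Because the gene was picked for this pattern, the excess is a description. ARIH1 ranked 1 of 1522 genes by number of 3' UTR clusters in WT replicate 1, and in WT replicate 2 it shared rank 9 with other genes, of 792. The 3' UTR clusters lay between chr15:72583575 and chr15:72602964, a stretch of 19.39 kb that ends within the last bases of the gene.

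Per length, the classes were closer than the counts make them look. The 3' UTR stretch held 12.4 clusters per 10 kb in WT replicate 1 and 2.58 in WT replicate 2. The intronic stretch, from the first to the last intronic cluster over 107.49 kb, held 8.19 and 2.70. The order of the classes was thus opposite in the replicates. Reads per kb were lower in the 3' UTR stretch in both, at 41.0 and 8.72 against 46.6 and 18.1.

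By their median, intronic clusters of ARIH1 had more reads than its 3' UTR clusters. The median intronic cluster had 31.5 and 35 reads in WT replicates 1 and 2, and the median 3' UTR cluster had 23 and 19. Over all genes the order was the other way, with 20 and 38 reads for intronic and 24 and 54 for 3' UTR clusters. The most deeply read 3' UTR clusters of ARIH1, with 131 and 90 reads, stood well below the 830 and 440 of the intronic ones. Limited to clusters of at least 10 reads, the order of the medians turned in WT replicate 1 (33 reads for introns and 36 for the 3' UTR) and held in WT replicate 2 (36 and 30.5), and so it did with at least 3 converted positions (41 and 43.5, then 43.5 and 30.5).

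**Figure D3:**
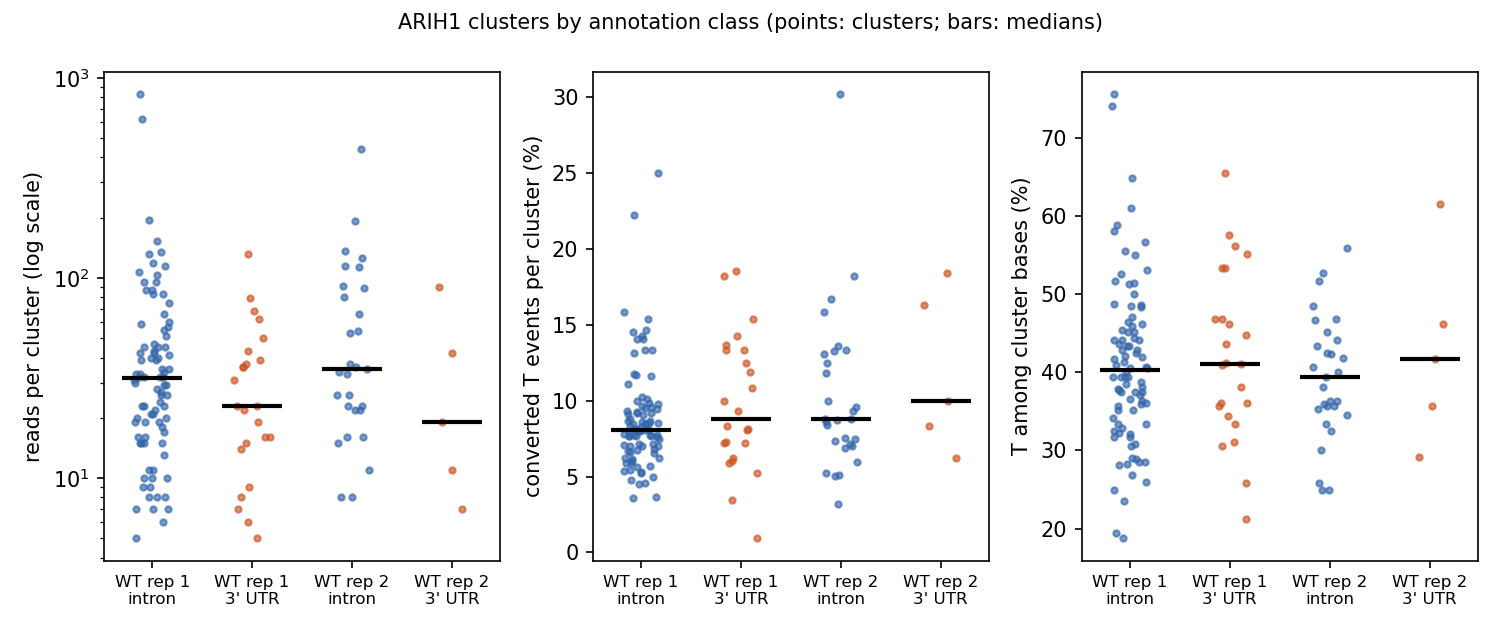
Reads per cluster (log axis), converted T events (%) and T among bases (%) for the intronic and 3' UTR clusters of ARIH1 in each WT library, with 1 point per cluster, spread sideways for sight, and the median as a bar. Median reads are lower in the 3' UTR than in introns in both libraries, 23 against 31.5 and 19 against 35, with wide overlap between the classes.

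Conversion, the mark of crosslinking, was at a similar level in both classes of ARIH1 clusters. A T event is 1 T position in 1 read. Of the T events in intronic clusters, 8.11% (95% Wilson interval 7.90 to 8.32) were converted in the deeper WT replicate 1, as were 8.22% (7.88 to 8.56) in the other WT library. For 3' UTR clusters the values were 7.85% (7.36 to 8.37) and 10.2% (8.92 to 11.7), so that by this summed share the 3' UTR was higher in WT replicate 2 only. The spread between replicates in the 3' UTR (9.04% ± 1.68, SD, n = 2) exceeded the difference from introns (8.16% ± 0.0748). Against the same class over all genes, ARIH1 introns were close, since all intronic clusters had 8.03% and 7.77%. The 3' UTR clusters of ARIH1 were higher than all 3' UTR clusters, which had 6.34% and 4.93%. By the median over clusters, which gives deep clusters no extra weight, the gap was smaller, with 8.80% and 10% for ARIH1 against 8.03% and 7.62%. By that median the 3' UTR clusters of ARIH1 were above its intronic ones in both replicates, the latter having 8.07% and 8.79%.

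Most reads of ARIH1 clusters carried a conversion. The share of reads that carried one had a median of 88.6% and 92.0% in intronic clusters and 97.0% and 100% in 3' UTR clusters. Over all genes these medians were 94.1% and 97.6% for introns and 87.5% and 95% for 3' UTRs, the opposite order. Some clusters were thin. In WT replicate 1, 5 of the 24 ARIH1 3' UTR clusters and 6 of the 88 intronic ones rested on a single distinct read sequence, beside 287 of 2562 and 10255 of 73317 over all genes. In WT replicate 2 it was 0 of the 5 3' UTR clusters and 2 of the 29 intronic ones. How far thin clusters move these medians was not tested.

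Base composition differed little between the classes. T made up 40.6% and 39.7% of the bases of intronic ARIH1 clusters and 42.0% and 43.0% of the 3' UTR ones in WT replicates 1 and 2, beside 40.4% and 42.1% for all intronic and 39.0% and 42.2% for all 3' UTR clusters. G made up 11.3% and 9.63% of intronic and 9.64% and 10.2% of 3' UTR bases. The last base was G in 74.1% and 97.1% of ARIH1 clusters, against 67.2% and 93.1% of all plus-strand clusters; RNase T1, used in the protocol, cuts after G. The share therefore followed the library more than the gene.

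The tetramer TCTT, searched on the transcript strand only, stood in 52 of 88 intronic ARIH1 clusters of WT replicate 1 (59.1%) and 16 of 29 of WT replicate 2 (55.2%). Over all genes 57.9% and 60.2% of intronic clusters held it, so ARIH1 introns were near the background. In the 3' UTR it stood in 11 of 24 (45.8%) and 2 of 5 (40%), below the 55.1% of all 3' UTR clusters in each library. The longer ATCTT, which contains TCTT, stood in 13.6% and 24.1% of intronic ARIH1 clusters, beside 14.8% and 15.9% of all intronic ones. In the 3' UTR it stood in 2 of 24 ARIH1 clusters (8.33%) and 0 of 5, beside 13.3% and 12% of all 3' UTR clusters. In the KO library 27.7% of clusters held TCTT. The deepest ARIH1 site, shown first above, holds 1 TCTT near its 3' end. The next deepest of WT replicate 1 holds none.

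A larger share of the ARIH1 clusters of WT replicate 2 was found again in WT replicate 1 than of all clusters of that library. ARIH1 was picked for its many clusters in these same libraries, so this share is a description. Clusters of 1 gene are not replicates, and no test was made. Counting an overlap of at least 1 nt, 13 of 34 clusters (38.2%, 95% Wilson interval 23.9 to 55.0) were found, beside 19.5% of all clusters of that library. Among intronic clusters 12 of 29 were found (41.4%, 25.5 to 59.3), beside 20.3% of all intronic clusters. In the 3' UTR 1 of 5 was found, beside 19.0%, and 5 clusters are too few to place the class. Without the stretch with the most clusters 10 of 26 were found (38.5%), so that the share did not rest on it.

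In the other direction, 13 of the 112 clusters of WT replicate 1 (11.6%) overlapped one of WT replicate 2, beside 6.00% of all clusters. By class these were 12 of 88 intronic clusters (13.6%, 7.98 to 22.3), beside 6.19%, and 1 of 24 3' UTR clusters (4.17%), beside 8.16%. Intronic clusters found in the other library had more reads, with medians of 42.5 against 28.5 in WT replicate 1 and 50.5 against 33 in WT replicate 2. The parts of read depth and of the high cluster density of ARIH1 in the shares above were not tested.

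The 13 overlapping pairs of ARIH1 were 12 intronic and 1 in the 3' UTR. Their overlaps were 24 to 42 nt long, 2 pairs had identical borders and 8 ended at the same base. The 3' UTR pair, chr15:72585193-72585220, had 43 reads in WT replicate 1 and 90 in WT replicate 2, with 83.7% and 100% of reads carrying a conversion by the deposited fraction. In WT replicate 1 that cluster had 4 conversion events, 0.930% of its T events, so the deposited measures differ there. In 6 of the 13 pairs the deeper library, WT replicate 1, had more reads. None of the member clusters overlapped a KO cluster. The KO held only 842 clusters and the same share over all WT clusters was not computed, so this shows nothing particular to these genes.

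The other 3' UTR clusters of ARIH1 had no partner in the other WT library. The 3' UTR clusters with the most reads in WT replicate 1, chr15:72596318-72596350 with 131 reads and chr15:72596880-72596908 with 79, were among them. In WT replicate 2 the cluster after the shared one, chr15:72596549-72596574 with 42 reads, lay between them. It began at the base after the end of another WT replicate 1 cluster, chr15:72596517-72596548 with 39 reads. All of these belong to a group of 7 clusters at chr15:72596318-72597080, 6 from WT replicate 1 and 1 from WT replicate 2, with 289 and 42 reads. Both libraries thus had reads in the same short stretch of the 3' UTR, where their clusters abutted but did not overlap.

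ARIH2 had only intronic clusters in WT replicate 1, with 12, 13, 29, 36, 45, 61, 6 and 14 reads in order along the gene. In WT replicate 2 it had 4 intronic clusters, with 31, 10, 564 and 21 reads, and 1 cluster of 65 reads that the authors placed in coding and intronic sequence. No ARIH2 cluster lay in a 3' UTR. A single site was called in both libraries, chr3:48961805-48961835, with identical borders and 61 and 21 reads. The cluster of 564 reads, chr3:48949992-48950027, had no partner in WT replicate 1, whose nearest cluster, chr3:48949818-48949851, had 36 reads. TCTT stood in 7 of 8 ARIH2 clusters of WT replicate 1, beside 57.5% of all its clusters, and in 3 of 5 of WT replicate 2, beside 59.5%.

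The coding and intronic cluster of ARIH2, chr3:48967244-48967277, differed from the rest in composition and conversion. G made up 41.2% and T 23.5% of its bases. Only 6.15% of its 65 reads carried a conversion, and 0.769% of its T events were converted, at 4 positions. The other ARIH2 clusters ranged from 3.54% to 11.1% in converted T events. In its library 161 of 27155 clusters (0.593%) had a share of reads with a conversion as low or lower. It was named after its values had been seen.

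By intronic and 3' UTR cluster counts in the WT libraries, the genes most like ARIH1 were TEAD1, PRRC2B, UBE3A, RERE and E2F3, of 5526 genes with a cluster in both. The measure was the distance over the 4 counts as log2(clusters + 1), in which 0 is identical. TEAD1, a transcription factor of the Hippo pathway, lay at 1.49, with 101 and 32 intronic and 8 and 5 3' UTR clusters in WT replicates 1 and 2. PRRC2B, a proline-rich coiled-coil protein, lay at 1.70, with 71 and 33 intronic and 9 and 2 3' UTR clusters. UBE3A lay at 2.34, RERE at 2.40 and E2F3 at 2.88, whereas the median gene lay at 6.98 and ARIH2 at 6.77. By this pattern ARIH2 thus lay close to the median gene, slightly nearer to ARIH1.

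Counts over both classes describe where ARIH1 was taken from. At least 1 3' UTR cluster in each WT library was found for 430 genes, which are 2.14% of RefSeq protein-coding genes. At least 5 in each was found for 15 genes, and with at least 25 intronic clusters in each for 2, ARIH1 and TEAD1. These limits were set after ARIH1's counts were known and ARIH1 was chosen on the same counts, so its passing them shows nothing about how rare the pattern is.

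**Figure D4:**
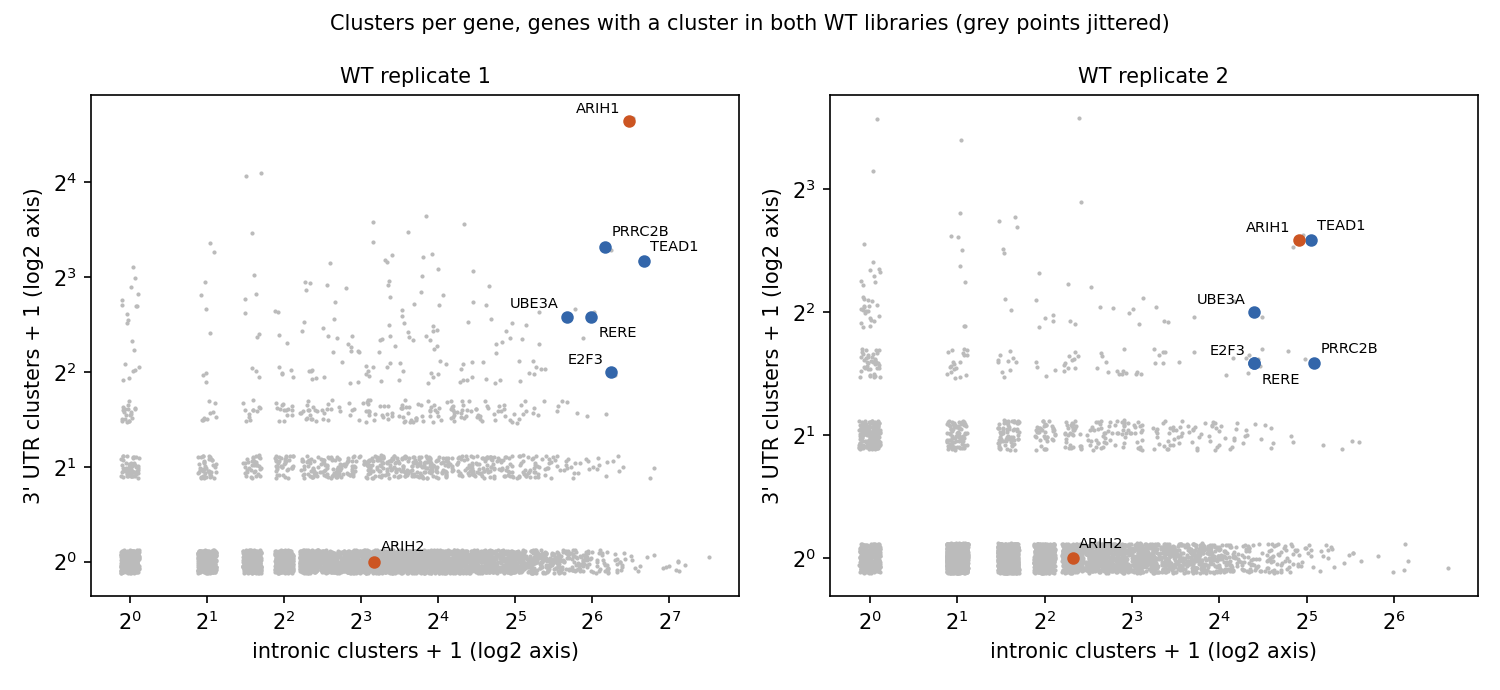
Intronic against 3' UTR clusters per gene (log2 axes of clusters + 1) in each WT library, for the 5526 genes with a cluster in both; grey points are jittered, ARIH1 and ARIH2 are orange and the 5 genes most like ARIH1 are blue. ARIH1 is the highest point in WT replicate 1 with 24 3' UTR clusters and stands beside TEAD1 in WT replicate 2 with 5, while ARIH2 lies on the bottom row in both.

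The other RBR ligases had fewer clusters than ARIH1, which was picked for its count. Of 12 genes, 8 and 7 had a cluster in WT replicates 1 and 2, with 6 in both (26.2% of RefSeq protein-coding genes had a cluster in both). In any library 3 had none: RNF31, RBCK1 and RNF144B. Shares of RefSeq protein-coding genes with a cluster in a single library, or in none, were not computed. RNF31 and RBCK1 are the HOIP and HOIL-1 subunits of the linear ubiquitin assembly complex. The most clusters belonged to RNF144A, with 14 and 3, RNF216, with 12 and 4, and ANKIB1, a further Ariadne-family ligase, with 14 and 2. A single 3' UTR cluster was found in the list, in RNF216 in WT replicate 2. Only 2.14% of RefSeq protein-coding genes had a 3' UTR cluster in both WT libraries, so 12 genes are too few to place the list. The medians over the list were 2 and 1.5 clusters, beside 0 and 0 over all RefSeq protein-coding genes and 112 and 34 for ARIH1.

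The genes of cullins, of the NEDD8 pathway and of other partners of ARIH1 and ARIH2 had a higher median in WT replicate 1 only. Their medians were 10 and 1 clusters in WT replicates 1 and 2, against 2 and 1.5 for the other RBR ligases. Of 17 genes, 16 had a cluster in WT replicate 1. The share of RefSeq protein-coding genes with one in that library was not computed, so this count has no background. Their median there was 0 clusters and their upper quartile 3. In both WT libraries 12 had one, beside 26.2% of RefSeq protein-coding genes. Expression of the genes was not taken into account. UBE2M, a NEDD8-conjugating E2, had none. CUL3 had 42 and 13 clusters, CUL1 31 and 15, and UBE2L3 28 and 6, of which 2 in WT replicate 2 were in its 3' UTR. No gene of the list had a 3' UTR cluster in both WT libraries, beside 2.14% of RefSeq protein-coding genes. At that share, 17 genes are too few for their lack to show anything. In the KO library CUL1 and CUL5, the scaffold that ARIH2 works with, had 1 cluster each, where 2.86% of all RefSeq protein-coding genes and 8.69% of genes with a cluster in both WT libraries had one. Per length UBA3, the catalytic subunit of the NEDD8-activating enzyme, was the highest of the list, with 5.85 and 1.56 clusters per 10 kb. These lists were chosen for their function and get no test.

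**Figure D5:**
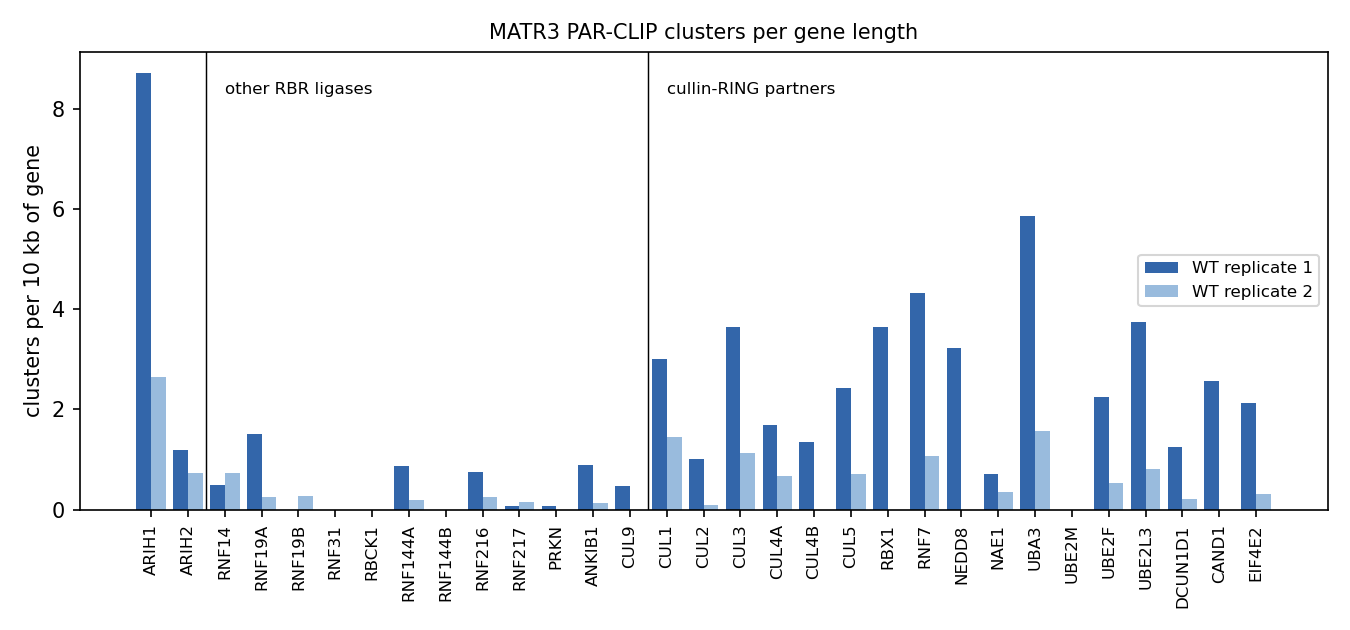
Clusters per 10 kb of gene in each WT library for ARIH1, ARIH2, the other RBR ligases and the cullin partners; bars start at 0 and a missing bar is a gene without a cluster. ARIH1, with 8.71 and 2.64, stands above every gene of both lists, the next being UBA3 with 5.85 and 1.56.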

How the data were processed

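The files are 1 cluster table per library. Per the submitters' processing notes, cutadapt 1.8.3 and Bowtie 1.1.2 were used and the builds named are hg38 and GRCh38.p5; the cluster caller and its settings are not given in the sources used here. The authors deposited read counts and conversion event counts per cluster, not normalized, and the proportions of reads converted and of reads ending in G as a fraction from 0 to 1. No cluster has fewer than 5 reads or 2 converted positions. The deposited fraction of reads ending in G has a median of 0 on the minus strand in every library, so it was used for no comparison. Library totals were 2668797, 1558995 and 224142 reads in clusters for WT replicate 1, WT replicate 2 and KO.

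Clusters were taken by gene name and class as annotated. The share of converted T events is conversion events over conversion and non-conversion events, summed over a class. Shares have 95% Wilson intervals, which cover counting error only, since reads are not independent molecules. Clusters overlap if they share at least 1 nt on the same strand. Gene intervals come from the RefSeq table (GRCh38.p14), which differs from the files' build in its patch release. Python 3.11.15, pandas 2.3.3, numpy 2.4.6 and scipy 1.17.1 were used; the overlap code was tested on simulated data. With 2 WT libraries and 1 KO library no test was run, and whether the WT libraries came from separate cultures is not given, so their spread may be technical.

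The members and gene lists were chosen with earlier results of these data known. Genes named were ARIH1, ARIH2, the 3 genes of each list with the most WT clusters, genes with a 3' UTR cluster in both WT libraries, and the 5 genes most like ARIH1; genes named for having no cluster or a KO cluster were chosen after their values were seen. Single clusters named were the ARIH1 pairs, the 2 with the most reads per class and library, and those of ARIH2; 1 of these clusters is not reported here.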

Additional observations from a re-analysis of the deposited data

Results flagged for a closer look

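Clusters that the authors assigned to no gene lay just past the end of ARIH1. Within 5 kb of the RefSeq end, WT replicate 1 had 2 such clusters with 41 reads in all, and WT replicate 2 and the KO had none. The nearer, chr15:72603625-72603702, began 638 nt past the end and had 31 reads, of which 96.8% carried a T-to-C change. The farther, chr15:72604785-72604819, had 10 reads, of which 80% did. Over all genes with a 3' UTR cluster, WT replicate 1 had 148 of 1272 (11.6%) and WT replicate 2 had 21 of 668 (3.14%) with an unannotated cluster that near. Whether these reads belong to the transcript of ARIH1 was not tested.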

How the results depend on the processing

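Of 54 values under other settings, 37 stayed close to the main value. Close meant cluster counts within 1.5 times, overlap shares within the Wilson interval, and the rest within 1 SD of the replicates. With 2 WT libraries, a value from either one alone always lies within 1 SD of their mean. Such values, other than the cluster counts, were therefore close by construction and show no stability. Counts per 10000 clusters were scored against plain counts, and the overlap from WT replicate 1 against that from WT replicate 2. These differ in unit or denominator, so their being scored as moved also says little. Reversal was not scored, and the order of the ARIH1 classes by median reads turned in WT replicate 1 as given above. With at least 3 converted positions per cluster, the mean over WT libraries was 42 ARIH1 clusters, 42.25 reads per intronic and 37 per 3' UTR cluster. Under that setting 7.90% of intronic T events were converted, and intronic clusters had 41.0% T. With at least 10 reads, 3' UTR clusters had 33.25 reads and 43.9% T. As means over clusters, reads were 62.1 for introns and 33.5 for the 3' UTR, and the median conversion of intronic clusters was 8.43%. Without the stretch with the most clusters, an alternative added after seeing the data, intronic conversion was 8.08%. Per 10000 clusters the counts were 12.7 for ARIH1 and 1.38 for ARIH2, and weighted by reads the 3' UTR share was 10.8%. Overlap counted from WT replicate 1 was 11.6%. Leaving out either WT replicate gave 34 to 112 ARIH1 clusters and 5 to 8 ARIH2 clusters; the overlap has no value with 1 WT library. No paired analysis was possible because there is 1 KO library, its label carries no replicate number, and no test was run. The 5 3' UTR clusters of WT replicate 2 and the 842 KO clusters limit what the counts can show.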
